A study of Mus musculus with 3 samples.

Results

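The genes described here are 10 members of the purinergic and adenosine signalling system, namely the ATP-gated channel genes P2rx4 and P2rx7, the nucleotide receptor genes P2ry2, P2ry6, P2ry12, P2ry13 and P2ry14, the adenosine receptor genes Adora2a and Adora2b, and the ectonucleotidase gene Entpd1. They were chosen by gene symbol, and all 10 were found among the 55536 genes of the tables, with the identifiers ENSMUSG00000029470.15 (P2rx4), ENSMUSG00000029468.17 (P2rx7), ENSMUSG00000032860.5 (P2ry2), ENSMUSG00000048779.5 (P2ry6), ENSMUSG00000036353.13 (P2ry12), ENSMUSG00000036362.2 (P2ry13), ENSMUSG00000036381.13 (P2ry14), ENSMUSG00000020178.6 (Adora2a), ENSMUSG00000018500.2 (Adora2b) and ENSMUSG00000048120.16 (Entpd1). Their RNA was measured by total RNA-seq with ribosomal RNA depletion in the cytosolic fraction of bone marrow-derived macrophages (BMDM), primary phagocytes grown from marrow, of strain C57BL/6J. The cells of all 3 libraries had received 100 ng/ml of lipid A for 12 h, had then been kept for 12 h after it was washed out, and were taken at 0 min of a second lipid A exposure. Lipid A, the lipid portion of bacterial endotoxin, acts through TLR4. The labels give no sex or age and 1 donor identifier for all 3 libraries, and they do not say whether separate animals were used. The SDs and p-values below therefore measure how far these libraries differ, which may be technical variation. The libraries form 1 group. No untreated or restimulated cells were analysed here, so the values describe this state of the cells and no effect of lipid A.

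Cells release ATP, UTP and related nucleotides when they are stressed, damaged or activated, and macrophages sense them through 2 receptor classes. P2X receptors are trimeric cation channels opened by ATP, and P2Y receptors are G protein-coupled receptors for purine or pyrimidine nucleotides. CD39, the product of Entpd1, removes phosphates from ATP and ADP to give AMP. CD73, the product of Nt5e, turns AMP into adenosine, which acts on its own G protein-coupled receptors and generally dampens macrophage activation through cyclic AMP.

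Replicates 1, 2 and 3 held 28981178, 53119941 and 46783133 expected counts. Levels are deposited TPM, which is transcript abundance per length relative to the library total, as mean ± SD over the 3 libraries. All 10 macrophage markers examined, among them Adgre1, Csf1r and Lyz2, reached 1 TPM in every library, against 6 of the 48 markers of other cell types reported here. The highest marker of each list was Lyz2 (3326 TPM, macrophages), Pf4 (74.1, platelets), S100a9 (4.54, neutrophils), Batf3 (2.16, dendritic cells), Lck (0.123, T and NK cells), Cd79b (1.62, B cells), Kit (0.257, mast cells), Kdr (5.62, endothelium and stroma) and, of those reported for microglia, Olfml3 (0.413), as mean TPM. Replicate 3 stood apart in the nuclear RNA Malat1, with 158, 91.0 and 1343 TPM in replicates 1, 2 and 3. Transcripts of protein-coding genes summed to 309693, 272320 and 315755 TPM, so the TPM of a gene also depends on the other RNAs in its library.

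Of the 10 genes, 9 reached 1 TPM in every library and 5 reached 10 TPM, while 41.2% and 17.1% of all 22028 protein-coding genes did so. The members were picked by their role in cells of this kind, so nothing is read from their share against that background. Their means ran from 0.303 TPM for Adora2b to 224 TPM for P2rx4, with a median over the 10 of 12.2 TPM. Among the 9407 protein-coding genes with a mean of at least 1 TPM, the median was 8.22 TPM. In descending order the genes were P2rx4, P2ry6, P2ry14, Entpd1, P2rx7, P2ry13, Adora2a, P2ry12, P2ry2 and Adora2b. Of the 9 neighbouring pairs in that order, 5 had library values that did not overlap. These were P2rx4 over P2ry6, Entpd1 over P2rx7, P2rx7 over P2ry13, P2ry13 over Adora2a, and P2ry2 over Adora2b. Neighbours whose values overlapped were P2ry6 and P2ry14, P2ry14 and Entpd1, Adora2a and P2ry12, and P2ry12 and P2ry2, so their order is not resolved by these libraries. No sign-flip test over 3 libraries can fall below p = 0.25 (exact, two-sided), and none is given for the order. With the read-derived TPM table the number of pairs without overlap was 3, and the order also changed, with Entpd1 above P2ry14. Entpd1 and P2rx7 still did not overlap there but were no longer neighbours, while P2ry13 and Adora2a did overlap. In bulk RNA such as this, fewer cells of a type and less RNA per cell cannot be told apart.

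**Figure D1:**
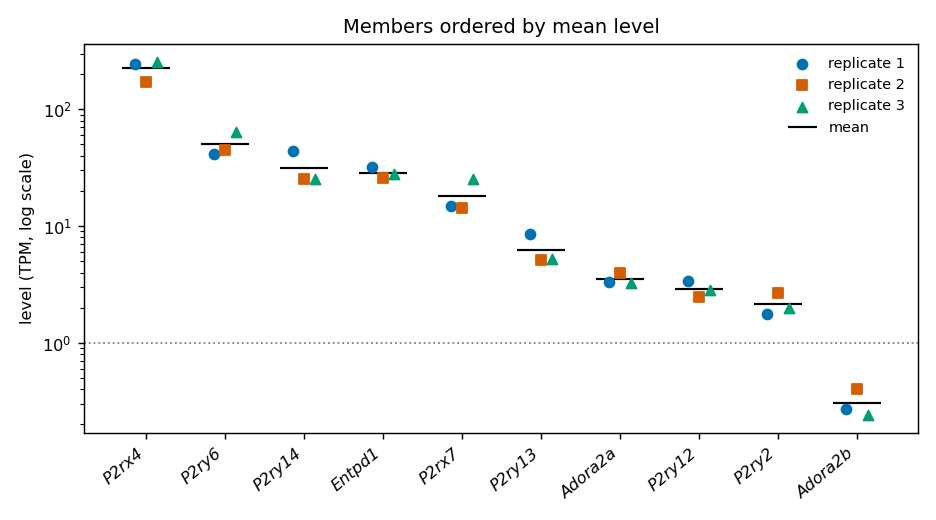
Level of each gene in TPM (log axis) in replicates 1, 2 and 3, with the mean as a line and 1 TPM as a dotted line. P2rx4 stood above the other genes in every library, and Adora2b was the one gene below 1 TPM.

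Among the channels, P2rx4 was the most abundant gene of the set, and P2rx7 stood far below it. P2rx4 encodes P2X4, a channel with high affinity for ATP that is found on lysosomes as well as on the cell surface. It held 244, 171 and 256 TPM in replicates 1, 2 and 3 (224 ± 45.8, SD, n = 3), lowest in replicate 2, and its mean ranked 153 among all protein-coding genes. P2rx7 encodes P2X7, which needs high ATP and whose opening lets potassium leave the cell, a trigger of the NLRP3 inflammasome. It held 14.9, 14.4 and 25.3 TPM (18.2 ± 6.17, SD, n = 3), highest in replicate 3. The ratio of P2rx4 to P2rx7 within a library was 16.4, 11.9 and 10.1, a log2 ratio of 3.65 ± 0.36 (SD, n = 3). The other 5 P2X genes added little. P2rx1, P2rx6, P2rx5 and P2rx3 had means of 0.26, 0.16, 0.043 and 0.02 TPM, and P2rx2 had 0 counts throughout. A count of 0 allows up to 0.104, 0.0565 and 0.0641 CPM (counts scaled to the library total) in replicates 1, 2 and 3, taking 3 counts of the total and counting error alone. Of the summed P2X TPM, P2rx4 took 92.3 ± 1.63% and P2rx7 7.48 ± 1.65% (SD, n = 3). P2rx7 and P2rx4 are neighbours on the plus strand of chromosome 5, at 122643911 to 122691432 and 122707544 to 122729738 (mm10, GENCODE M21), 16111 bases apart. The miRNA gene Mir8115 shares 119 exonic bases of P2rx7 on the same strand.

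The most abundant P2rx4 transcript in both transcript tables lacks a coding exon. P2rx4-201, which encodes the full channel of 388 codons in 12 exons, held 69.3 ± 8.05 TPM in the alignment-based table, against 111 ± 24.6 TPM for P2rx4-202 and 35.7 ± 11.1 TPM for P2rx4-206 (SD, n = 3). P2rx4-202 leaves out exon 6 of P2rx4-201, of 81 bases or 27 codons, and ends at 361 codons. P2rx4-206 leaves out exon 10, of 66 bases or 22 codons, and ends at 366 codons. Both losses keep the reading frame. As shares of P2rx4 TPM, the 3 transcripts took 31.4 ± 3.22%, 49.5 ± 1.65% and 15.8 ± 2.88% in the alignment-based table. In the read-derived table they took 4.33 ± 0.444%, 57.4 ± 1.06% and 32.1 ± 2.64% (SD, n = 3). The tables therefore placed P2rx4-202 first and differed several-fold on P2rx4-201, so the share of the full-length form is not settled by them. These are estimates over transcripts that share most of their sequence, and no count of reads over the exon junctions was analysed here. The skipped exons are shown because they set the coding sequences of these transcripts apart. They are read from the GENCODE M21 transcript P2rx4-201, in capitals, with 15 flanking bases of the neighbouring coding exons in lower case.
P2rx4 exon 6, plus strand, chr5:122724594-122724674: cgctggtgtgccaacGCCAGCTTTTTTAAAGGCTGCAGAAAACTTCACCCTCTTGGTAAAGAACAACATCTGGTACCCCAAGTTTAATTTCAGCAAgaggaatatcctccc
P2rx4 exon 10, plus strand, chr5:122727399-122727464: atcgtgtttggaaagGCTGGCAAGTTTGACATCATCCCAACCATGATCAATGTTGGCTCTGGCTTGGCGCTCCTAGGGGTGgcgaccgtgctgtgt

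The full-length form led P2rx7 RNA in every library, and the higher TPM of the gene in replicate 3 lay more in non-coding than in coding transcripts. P2rx7-203, of 595 codons, held 9.57, 8.51 and 12.4 TPM in replicates 1, 2 and 3, or 57.5 ± 7.92% of P2rx7 TPM in the alignment-based table and 64.1 ± 14.3% in the read-derived table (SD, n = 3). In replicate 3 those 12.4 TPM stood against 25.3 TPM of the whole gene. P2rx7-204, of 431 codons, held 1.27 ± 0.255 TPM. P2rx7-208, of 592 codons, has its own first exon and start site. It held 0.10 ± 0.111 TPM in the alignment-based and 0.311 ± 0.119 TPM in the read-derived table. The non-coding transcript P2rx7-206 held 0.00, 0.69 and 5.35 TPM in replicates 1, 2 and 3, and 0.0415, 0.994 and 1.75 TPM in the read-derived table. Protein-coding P2rx7 transcripts together held 11.0, 10.6 and 14.4 TPM. By counts scaled with TMM (trimmed mean of M values), which are not divided by transcript length, P2rx7 held 93.3, 91.0 and 105 CPM, a ratio of highest to lowest of 1.15. The retained-intron transcript P2rx7-205 held 3.72 ± 1.01 TPM in the alignment-based table and is listed at 0 in every read-derived library.

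**Figure D2:**
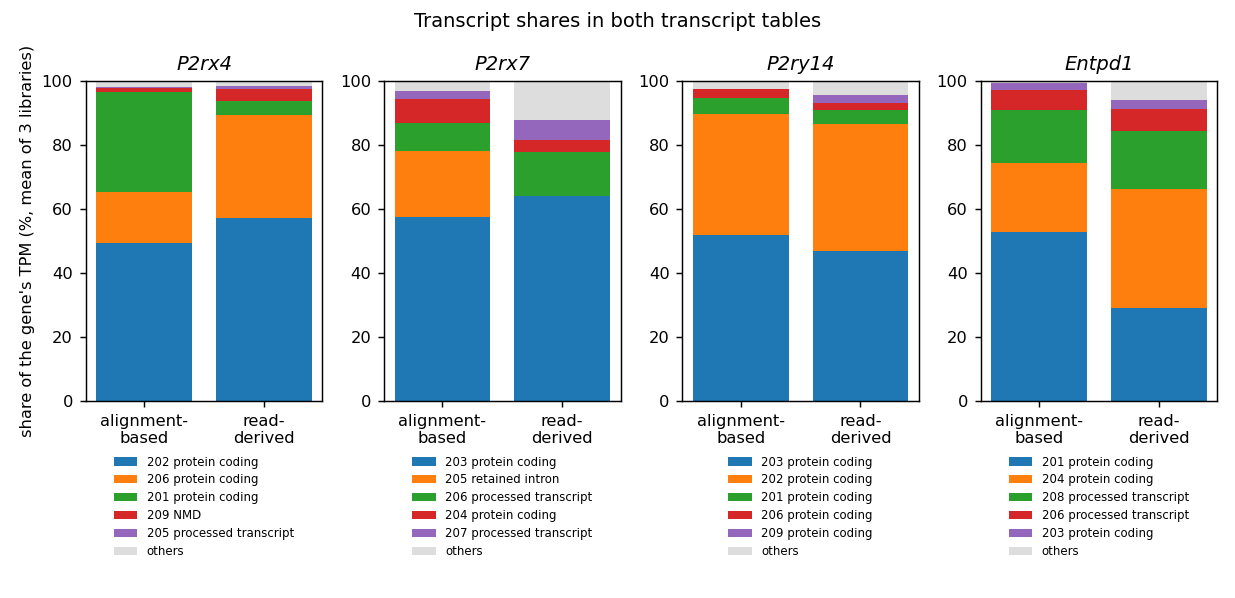
Share of each gene's TPM (%, mean of 3 libraries) by transcript in the alignment-based and the read-derived table, for P2rx4, P2rx7, P2ry14 and Entpd1, with the 5 largest transcripts named by number and annotation class. P2rx4-202 leads in both bars, while P2rx4-201 shrinks from 31.4% to 4.33%.

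Of the P2Y1 branch of receptors, which mostly signal through Gq and calcium, P2ry6 was abundant and P2ry2 low. P2ry6 encodes P2Y6, the receptor for UDP, known for promoting phagocytosis. It held 41.6, 45.1 and 63.9 TPM in replicates 1, 2 and 3 (50.2 ± 12.0, SD, n = 3), and its transcript P2ry6-201 took 98.8 ± 1.30% of that. P2ry2 encodes P2Y2, which senses ATP and UTP and steers phagocytes to dying cells. It held 1.76, 2.65 and 1.98 TPM (2.13 ± 0.464, SD, n = 3), highest in replicate 2. Within libraries P2ry6 exceeded P2ry2 by 23.6, 17.0 and 32.3 times. The genes lie 21918 bases apart on the minus strand of chromosome 7, P2ry6 at 100937630 to 100974649 and P2ry2 at 100996568 to 101012866. Their close relatives P2ry1, an ADP receptor, and P2ry4, a UTP receptor, held 0.207 TPM on average and 0 counts in every library. P2ry10b held 2.87 ± 0.396 TPM and its neighbour P2ry10 0.07 ± 0.017 TPM (SD, n = 3). The 5 members made up 96.7 ± 0.775% of the summed TPM of 9 genes with P2ry symbols (SD, n = 3). P2ry6 took 52.3 ± 11.1% and P2ry14 32.6 ± 9.28% (SD, n = 3). These 9 genes, P2ry10 and P2ry10b among them, were grouped by symbol and not by ligand.

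The P2Y12 branch, whose receptors signal through Gi and lower cyclic AMP, comes from 1 gene cluster, and P2ry14 stood above P2ry13 and P2ry12 in every library. P2ry14 encodes P2Y14, the receptor for UDP-glucose and related UDP sugars. It held 43.8, 25.5 and 25.2 TPM in replicates 1, 2 and 3 (31.5 ± 10.7, SD, n = 3), with replicate 1 above the others. P2ry13 encodes P2Y13, an ADP receptor. It held 8.51, 5.11 and 5.19 TPM (6.27 ± 1.94, SD, n = 3), again with replicate 1 highest. P2ry12 encodes P2Y12, the ADP receptor of platelets and of resting microglia. It held 3.38, 2.46 and 2.83 TPM (2.89 ± 0.463, SD, n = 3). Although both genes varied between libraries, P2ry14 stood 5.15, 4.99 and 4.86 times above P2ry13 within them, a log2 ratio of 2.32 ± 0.04 (SD, n = 3). With read-derived TPM that log2 ratio was 2.39 ± 0.04. P2ry13 stood 2.52, 2.08 and 1.83 times above P2ry12. Of 45 pairs among the 10 genes, the 3 with the smallest Euclidean distance between centred log2(TPM + 1) over the 3 libraries were P2ry12 with Entpd1 (0.03), Adora2a with Adora2b (0.04) and P2ry13 with P2ry14 (0.12). The pseudocount of 1 shrinks this distance for low genes such as Adora2b, and 3 libraries are too few to rank patterns with confidence.

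Since P2ry12 also marks platelets and microglia, their other markers were read beside it. Of 7 platelet markers, Pf4 was the one at 1 TPM or more, at 74.1 ± 15.9 TPM (SD, n = 3), a chemokine gene that macrophages also express, and the other 6 summed to at most 0.68 TPM in any library. The 4 microglia markers reported here summed to between 0.45 and 0.91 TPM. Tmem119 held 0.17, 0.13 and 0.36 TPM in replicates 1, 2 and 3, and Sall1 had 0 counts.

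P2ry14 (59113855 to 59153618), P2ry13 (59207892 to 59210882) and P2ry12 (59216272 to 59262871) lie in that order on the minus strand of chromosome 3, within 149017 bases, and the span of the plus-strand gene Med12l covers all 3. Exons of Med12l share 9 bases with P2ry12 and none with P2ry13 or P2ry14. The sources used here do not say whether reads were counted by strand. Med12l held 0.44, 0.27 and 0.30 TPM and was also highest in replicate 1. The neighbouring receptor gene Gpr171 held 0.537 ± 0.015 TPM (SD, n = 3).

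**Figure D3:**
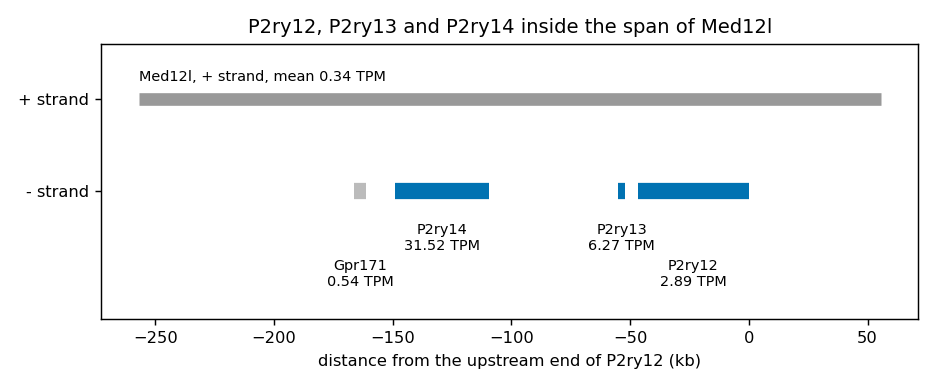
Gene spans on both strands by distance from the upstream end of P2ry12 (kb), with mean TPM over 3 libraries, members in blue and other genes in grey. P2ry14, P2ry13 and P2ry12 lie on the minus strand inside Med12l, with means of 31.5, 6.27 and 2.89 TPM against 0.34 TPM for Med12l.

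P2ry14 RNA was assigned mostly to transcripts of 2 start regions. The split is an estimate, and no reads over first exons or exon junctions were counted here. Transcripts starting within 200 bases of the RefSeq start at position 59153492 held 25.8, 13.5 and 11.8 TPM in replicates 1, 2 and 3 (17.0 ± 7.65, SD, n = 3), nearly all of it P2ry14-203. Those near position 59130762 held 17.5, 11.9 and 12.9 TPM (14.1 ± 3.01, SD, n = 3), chiefly P2ry14-202. P2ry14-202 itself begins 140 bases downstream of that position. P2ry14-202 and P2ry14-203 encode the same 338 codons, from 2 and 3 exons, and differ outside the coding sequence. In the read-derived table the 2 regions held 6.28 ± 3.97 and 5.68 ± 2.50 TPM (SD, n = 3). For P2ry12 the tables disagreed on the leading transcript by mean TPM. It was P2ry12-202 at 1.33 ± 0.276 TPM in the alignment-based table and P2ry12-204 at 0.327 ± 0.177 TPM in the read-derived table. In the read-derived table the leader also changed between libraries. It was P2ry12-203 in replicate 1, P2ry12-204 in replicate 2 and P2ry12-201 in replicate 3, so no leader is resolved there. P2ry12-202 and P2ry12-204 encode the same 347 codons.

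The 250 bases upstream of these starts are shown because P2ry13 and P2ry14 varied together and P2ry14 RNA was assigned to 2 starts. Those upstream of P2rx4, the most abundant member, are shown beside them. They are the RefSeq entries of build GRCm38.p6, 5′ to 3′ on the strand of the gene, with matches to the 7 motifs searched in capitals.
P2ry14 upstream start, minus strand, chr3:59153493-59153742: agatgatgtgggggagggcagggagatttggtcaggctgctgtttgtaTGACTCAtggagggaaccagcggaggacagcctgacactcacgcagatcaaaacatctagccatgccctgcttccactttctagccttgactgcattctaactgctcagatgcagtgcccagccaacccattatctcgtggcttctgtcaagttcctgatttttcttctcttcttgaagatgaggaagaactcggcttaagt
P2ry14 downstream start, minus strand, chr3:59130763-59131012: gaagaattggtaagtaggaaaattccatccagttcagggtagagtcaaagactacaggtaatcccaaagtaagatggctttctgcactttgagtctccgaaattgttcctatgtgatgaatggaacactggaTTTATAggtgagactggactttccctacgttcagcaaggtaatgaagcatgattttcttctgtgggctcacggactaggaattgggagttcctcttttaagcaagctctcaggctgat
P2ry13, minus strand, chr3:59210883-59211132: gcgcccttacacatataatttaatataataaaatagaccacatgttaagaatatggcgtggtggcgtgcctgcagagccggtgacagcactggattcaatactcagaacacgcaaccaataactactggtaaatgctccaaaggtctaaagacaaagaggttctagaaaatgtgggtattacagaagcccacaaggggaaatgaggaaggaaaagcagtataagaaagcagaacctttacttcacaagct
P2ry12, minus strand, chr3:59262986-59263235: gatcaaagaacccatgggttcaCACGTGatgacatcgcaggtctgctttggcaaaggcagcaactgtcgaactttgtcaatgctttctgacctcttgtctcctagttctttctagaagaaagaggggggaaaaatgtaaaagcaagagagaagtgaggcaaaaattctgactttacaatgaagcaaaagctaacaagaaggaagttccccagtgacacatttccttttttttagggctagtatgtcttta
P2rx4, plus strand, chr5:122707294-122707543: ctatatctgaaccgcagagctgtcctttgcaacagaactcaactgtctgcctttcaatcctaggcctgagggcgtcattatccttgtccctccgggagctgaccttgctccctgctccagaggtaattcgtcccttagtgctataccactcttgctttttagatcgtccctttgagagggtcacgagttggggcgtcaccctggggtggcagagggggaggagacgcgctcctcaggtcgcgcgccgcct

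On either strand of these windows, the capitals mark an AP-1 site (TGANTCA) 202 bases before the upstream start of P2ry14. A TATA box (TATAAA) lies on the opposite strand, 118 bases before the RefSeq position of the downstream start of P2ry14. An E-box (CACGTG) lies 228 bases before the RefSeq start of P2ry12. Transcripts within 200 bases of that start held 1.01 of the 2.89 TPM of P2ry12 in the alignment-based table. The leading transcript there, P2ry12-202, begins at position 59220259, inside the gene. In the read-derived table such transcripts held 0.546 of 1.08 TPM. The transcript with the highest mean in that table, P2ry12-204, begins 114 bases downstream of the RefSeq start. The P2ry13 and P2rx4 windows held none of the 7 motifs. Outside the windows shown, an AP-1 site lay 249 bases before a start of P2rx7 and 144 before a minor start of P2ry14, and an E-box lay 18 bases before a start of P2ry2. Over all 32851 windows of 250 bases in the table, 6.75% held the AP-1 site, 12.4% the TATA box and 6.02% the E-box. The interferon-stimulated response element (in 2.98% of windows), the cAMP response element (TGACGTCA, 1.55%), the PU.1 site (GAGGAAGT, 2.44%) and the NF-κB site (3.9%) matched none of the 14 start windows listed for 8 members. The matches shown do not overlap one another, and a match is a description of letters, not of a bound site. The P2rx4 window held 57.2% G and C and 13 CpG, against 41.6% for P2ry13 and P2ry12 with 5 and 3 CpG. The median over all windows was 52.4% and 6 CpG.

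Of the adenosine receptors, Adora2a was the main form at a low level and Adora2b was the lowest of the 10 genes. Adora2a encodes a high-affinity receptor that raises cyclic AMP through Gs. It held 3.35, 3.94 and 3.24 TPM in replicates 1, 2 and 3 (3.51 ± 0.376, SD, n = 3), a relative spread of 10.7%, the smallest of the 10 genes by TPM but not by TMM-scaled counts, where its highest library stood 1.53 times above its lowest. Its full-length transcript Adora2a-201, of 410 codons, took 82.0 ± 3.92% of that. Adora2b encodes a receptor that needs more adenosine. It held 0.27, 0.40 and 0.24 TPM (0.303 ± 0.085, SD, n = 3), from 21, 62 and 28 counts. Adora2a exceeded Adora2b by 12.4, 9.85 and 13.5 times within libraries. Adora3, which couples to Gi, held 0.47, 0.28 and 0.61 TPM, overlapping Adora2b, and Adora1 had 0 counts in each one. Of the summed TPM of the 4 adenosine receptor genes, 4.27 ± 0.306 TPM, Adora2a took 82.1 ± 3.04% (SD, n = 3). That sum lay below the level of each of P2rx4, P2ry6, P2ry14, Entpd1, P2rx7 and P2ry13 in every library. Adora2a lies on chromosome 10 (75316877 to 75334784) and Adora2b on chromosome 11 (62248984 to 62266453), both on the plus strand.

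Entpd1 RNA was abundant, while RNA of Nt5e, whose enzyme acts next in the pathway, did not exceed 0.08 TPM. Entpd1, on the plus strand of chromosome 19 (40612366 to 40741602), held 31.97, 25.8 and 28.1 TPM in replicates 1, 2 and 3 (28.6 ± 3.14, SD, n = 3), a relative spread of 11.0%. Nt5e had 2, 1 and 17 counts, or 0.01, 0.00 and 0.08 TPM, so its RNA was at or below the floor of 3 counts in replicates 1 and 2. Alpl, another enzyme that can make adenosine from AMP, had 0 counts in every library. Of the 15 other ectonucleotidase genes in the list, 8 reached 1 TPM in every library and 0 reached 10 TPM in every library. The highest were Cd38, an NAD-consuming ectoenzyme, at 8.71 ± 2.97 TPM, Entpd7 at 7.04 ± 1.12 TPM and Enpp4 at 4.51 ± 1.18 TPM (SD, n = 3). Entpd7 and its relatives Entpd4 to Entpd6 act mainly inside the cell or as secreted enzymes. Entpd2, Entpd3 and Entpd8, the other cell-surface members of the CD39 family, had at most 3 counts in any library.

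Full-length coding transcripts of Entpd1 began at 2 RefSeq start sites, and the transcript tables gave their leading transcripts in opposite order. Transcripts starting within 200 bases of the RefSeq start at position 40659770, led by Entpd1-201 of 510 codons, held 16.6, 15.4 and 15.5 TPM in replicates 1, 2 and 3 of the alignment-based table. Those at position 40612366, led by Entpd1-204 of 539 codons, held 8.59, 3.85 and 6.49 TPM. In the read-derived table the start regions held 4.90 ± 1.46 and 5.40 ± 1.48 TPM (SD, n = 3). Entpd1-204 held 6.98, 5.17 and 3.67 TPM there in replicates 1, 2 and 3, and Entpd1-201 held 5.10, 4.37 and 2.85 TPM. Within every library this order was the reverse of the alignment-based one, so the leading start is not settled by the tables. The coding sequences of Entpd1-201 and Entpd1-204 differ, and each has its own first exon. The non-coding transcripts Entpd1-208 and Entpd1-206 start outside both regions and held 4.70 ± 0.401 and 1.75 ± 0.385 TPM (SD, n = 3). Non-coding processed transcripts of Entpd1 took 22.7 ± 2.20% of its TPM in the alignment-based table and 28.2 ± 8.35% in the read-derived table. The windows of 250 bases before these starts are shown for comparison, and neither held any of the 7 motifs. The first has 62.4% G and C and 18 CpG, the second 47.2% and 8.
Entpd1 upstream start, plus strand, chr19:40612116-40612365: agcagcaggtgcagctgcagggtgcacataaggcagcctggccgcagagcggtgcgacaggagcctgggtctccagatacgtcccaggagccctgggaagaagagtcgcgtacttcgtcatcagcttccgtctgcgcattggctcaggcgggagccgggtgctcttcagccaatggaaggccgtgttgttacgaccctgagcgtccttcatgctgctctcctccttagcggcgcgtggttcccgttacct
Entpd1 downstream start, plus strand, chr19:40659520-40659769: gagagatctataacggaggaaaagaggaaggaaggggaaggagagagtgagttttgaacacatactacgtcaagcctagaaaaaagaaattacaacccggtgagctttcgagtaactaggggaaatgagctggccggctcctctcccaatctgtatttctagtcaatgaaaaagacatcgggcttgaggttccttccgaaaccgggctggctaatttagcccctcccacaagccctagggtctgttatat

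Across both transcript tables, 8 of the 10 members had the same leading transcript by mean TPM, the exceptions being P2ry12 and Entpd1. Those that agreed include P2ry13 and Adora2b, which have 1 annotated transcript each and could not differ. No share over all genes is given beside this count, so nothing is read from it about the members. Alignment-based gene levels were 2.04 (Entpd1) to 2.77 (P2rx7) times the read-derived ones. The median ratio over 9398 protein-coding genes was 2.55 (quartiles 2.38 and 2.66). Entpd1, P2rx4 and Adora2a, at 2.04, 2.05 and 2.33, lay below the lower quartile, and P2rx7, P2ry6 and P2ry12, at 2.77, 2.75 and 2.67, above the upper one.

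Of 85 other pathway genes in 8 lists, 59 reached 1 TPM in every library. Among nucleotide release channels 4 of 9 did, led by Calhm6 at 84.8 ± 22.7, Lrrc8a at 6.84 ± 0.465 and Calhm2 at 5.85 ± 0.602 TPM (SD, n = 3), and the ATP release channel gene Panx1 held 4.23 ± 0.335 TPM. Among genes of adenosine uptake and metabolism 9 of 11 did. The purine nucleoside phosphorylase gene Pnp led that list at 254 ± 54.2 TPM. It was followed by Xdh, whose enzyme forms urate in purine breakdown, at 54.5 ± 19.3 TPM. Next came the lysosomal nucleoside transporter gene Slc29a3, at 58.6, 38.7 and 52.8 TPM in replicates 1, 2 and 3. Adenosine deaminase, Ada, held 1.32 ± 0.323 TPM and adenosine kinase, Adk, 7.22 ± 1.16 TPM (SD, n = 3).

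Of 30 genes of G proteins and cyclic AMP signalling, 28 reached 1 TPM throughout, and the list's median was 9.68 ± 1.86 TPM (SD, n = 3). Gnas, the Gs subunit used by Adora2a, held 190 ± 13.6 TPM, and Gnai2, a Gi subunit of the kind used by the P2Y12 branch, held 187 ± 11.8 TPM, followed by Gnb1 at 148 ± 19.2 TPM (SD, n = 3). All 9 genes of the P2X7 inflammasome list reached 1 TPM in every library, led by Casp1 at 79.8 ± 7.34, Gsdmd at 51.7 ± 10.5 and Pycard at 30.2 ± 3.79 TPM (SD, n = 3). Their list median was 21.8 ± 3.52 TPM, next to 18.2 ± 6.17 TPM for P2rx7 itself.

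**Figure D4:**
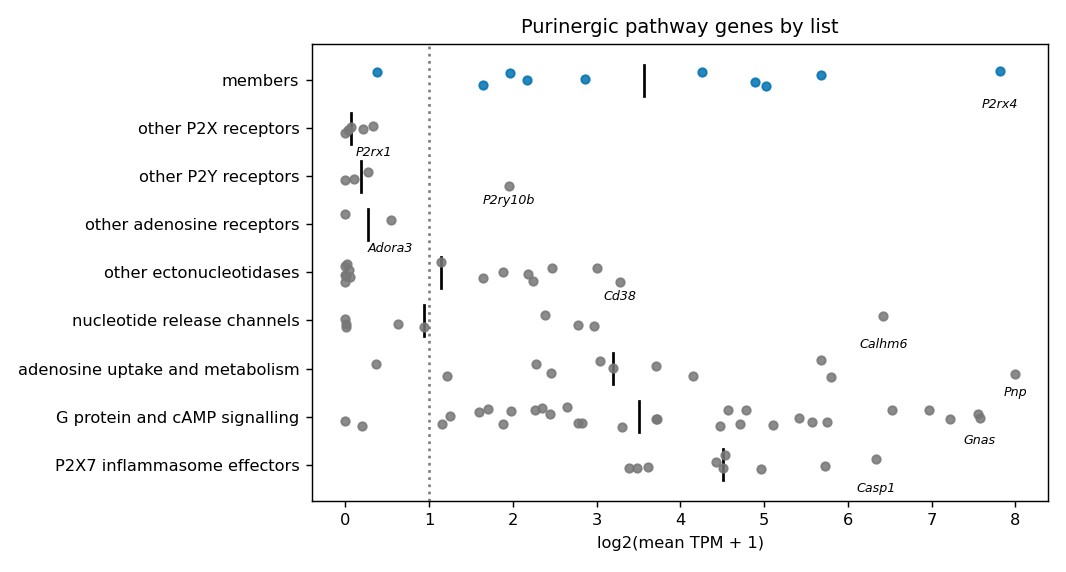
Mean level of each gene as log2(mean TPM + 1) by list, with the list median as a vertical line, the dotted line at 1 TPM and the highest gene of each list named. Genes listed by symbol as other P2X, P2Y and adenosine receptors lie near 0 apart from P2ry10b. Each of the other lists, release channels and ectonucleotidases among them, holds genes within the range of the members, from 0.303 to 224 TPM.

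Between libraries, the members with the widest spread by TMM-scaled CPM were Adora2b, P2ry13, P2ry14 and P2ry2. By TPM they were P2rx7, P2ry14, P2ry13 and Adora2b, with relative spreads of 33.96%, 33.9%, 30.9% and 28.0%. In a chi-square test of homogeneity on TMM-scaled counts, with Benjamini-Hochberg adjustment over 13636 genes, all 10 members had an adjusted p under 0.05, as did 75.6% of all genes tested. This test covers counting error alone and compares these libraries, not conditions. When the highest library also had to exceed the lowest by 2 times or more, 1 of 10 members was called, against 16.2% of all genes and 8.12% of protein-coding genes tested. That gene was Adora2b, with 0.752, 1.17 and 0.573 TMM-scaled CPM in replicates 1, 2 and 3, a ratio of 2.03 and an adjusted p of 0.00583 in the chi-square test. The call rests on 21 to 62 counts and was lost (0 members called) without replicate 2 and without replicate 3. At a ratio of 1.5, 5 members were called, P2ry2, P2ry13, P2ry14, Adora2a and Adora2b, against 27.2% of all genes and 19.7% of protein-coding genes tested.

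By TMM-scaled CPM, P2ry13, P2ry14, P2ry12, Entpd1 and P2rx4 were highest in replicate 1. For P2rx4 this differs from TPM, which was highest in replicate 3, since its TMM-scaled CPM was 723, 570 and 659. P2ry13 held 33.5, 21.5 and 17.4 TMM-scaled CPM, a ratio of 1.93, and P2ry14 held 110, 69.7 and 60.9, a ratio of 1.81. The endothelial marker Kdr had the same order, at 88.5, 44.7 and 28.9 TMM-scaled CPM, as did Cdh5 at 1.504, 1.08 and 0.819. Pecam1 of the same list was highest in replicate 1 but lowest in replicate 2, at 6.12, 2.60 and 3.83. Pdgfrb went the other way, at 0.179, 0.227 and 0.348. The remaining markers of that list, Thy1, Col1a2 and Col1a1, had at most 4 counts in any library. Of the 7 endothelial and stromal markers 1 reached 1 TPM in every library, their summed level ran from 4.65 to 11.3 TPM over the libraries, and their part in the levels of P2ry13 and P2ry14 was not tested. P2ry2, Adora2a and Adora2b were highest in replicate 2 and lowest in replicate 3, with P2ry2 at 7.95, 13.1 and 7.66 TMM-scaled CPM. P2ry6 and P2rx7 were highest in replicate 3, with P2ry6 at 121, 142 and 156. Of the 11540 protein-coding genes tested, 33.1%, 39.2% and 27.7% were highest in replicates 1, 2 and 3. Of 69 pathway genes outside the members that could be tested, 30, 19 and 20 were highest in replicates 1, 2 and 3. The descending order of P2ry13 and P2ry14 was also found among them, so endothelial markers were not alone in it. Enpp4 held 43.1, 31.1 and 22.9 and Casp1 190, 175 and 140 TMM-scaled CPM. Of the 69, 2 were called at a ratio of 2, Bst1 and Itpr1, both highest in replicate 1.

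**Figure D5:**
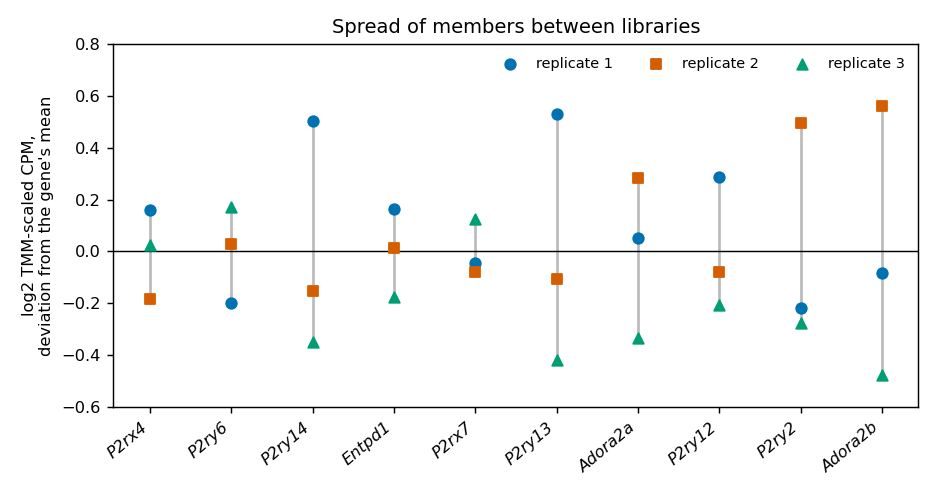
Deviation of log2 TMM-scaled CPM from the gene's own mean in replicates 1, 2 and 3, with genes in the order of their mean TPM. P2ry14 and P2ry13 are high in replicate 1 and low in replicate 3, while P2ry2, Adora2a and Adora2b are high in replicate 2.

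Retained-intron transcripts of the members were highest in replicate 3, the library with the most Malat1. The 7 such transcripts, of P2rx4, P2rx7, P2ry2, P2ry6 and P2ry14, summed to 4.79, 3.60 and 18.3 TPM in replicates 1, 2 and 3, so replicate 3 stood at 4.36 times the mean of the others. That ratio was 6.79 in the read-derived table and 13.1 without P2rx7-205. The 3 of P2rx4 gave most of it, at 1.22, 0.67 and 11.7 TPM, or 0.499%, 0.391% and 4.57% of P2rx4 TPM. P2ry14-204 held 0.07, 0.02 and 0.70 TPM and P2ry6-202 0.05, 0.03 and 1.08 TPM. Over all protein-coding genes, retained-intron transcripts summed to 8735, 8019 and 14173 TPM, in replicate 3 at 1.69 times the mean of the others, while Malat1 stood at 10.8 times. In the read-derived table the ratio over all protein-coding genes was 1.15 for retained-intron transcripts and 0.656 for all transcripts. The part of nuclear RNA in these values was not tested. The protein-coding transcripts of P2rx4 held 239, 168 and 241 TPM, far above the retained-intron forms in every library.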

How the data were processed

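Total RNA of 3 libraries of 1 group was quantified by the authors on assembly mm10 with annotation M21, per the deposited README. Expected counts (estimated counts per gene), TPM and FPKM are the authors' deposited values, per the file headers. One transcript table rests on alignments and the other was made straight from reads. The sources used here name no aligner or quantifier.

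Rows that name no gene (26345 of 81881, holding 0.418%, 0.248% and 0.165% of counts in replicates 1, 2 and 3) entered neither library sizes nor tests. TMM factors came from rounded expected counts (edgeR 4.0.16, R 4.3.3). A chi-square test of homogeneity, tested on simulated data, took genes with a mean of 10 or more counts, an adjusted p threshold of 0.05 and 0.5 added counts for ratios. No model of conditions could be fitted to 1 group. Differences of level used log2(TPM + 1).

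Members, lists and tests were chosen with earlier results of these data known. By rule the text names all members, every gene of the receptor lists, the 3 highest of each other pathway list, the highest marker of each type and the 3 closest pairs. Other genes, and the transcript, exon, start-site (within 200 bases) and retained-intron descriptions, were picked with their values in view. One cell type marker of the lists and one gene near the members are not reported here, and the marker counts leave that marker out. RefSeq promoters (GRCm38.p6) matched 8 of 10 members by symbol. Other thresholds, pseudocounts, units, filters, DESeq2 1.42.0 size factors and left-out replicates were tried. Python 3.11.15, pandas 2.3.3 and scipy 1.17.1 were used.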

Additional observations from a re-analysis of the deposited data

How the results depend on the processing

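The number of members at 1 TPM or more in every library, 9, stayed between 6 and 9 under the other thresholds, units and left-out replicates tried, with 6 from read-derived TPM, whose values are lower throughout. Neighbouring pairs without overlap numbered 5, with 3 by read-derived TPM, where the order of the genes also changed. They numbered 5 to 7 without 1 replicate, where fewer values make overlap less likely. Members differing between libraries numbered 1, with 0 at a mean of 50 counts or more, which removes Adora2b from the test, 5 at a ratio of at least 1.5, and 0 to 1 without 1 replicate (0 without replicate 2 and without replicate 3). Leading transcripts were the same in both tables for 8 members under each alternative tried. For P2ry13 and Adora2b, with 1 annotated transcript each, this was fixed in advance. FPKM, read-derived TPM and TPM rescaled to protein-coding genes moved the level of all 10 members by more than 1 SD, as changes of unit or scale, while posterior mean TPM and leaving out 1 replicate moved none. The ratio of retained-intron transcripts in replicate 3 to the others, 4.36, was 6.79 in the read-derived table and 13.1 without P2rx7-205, both chosen after seeing the data. No paired analysis was possible because the series holds 1 group. At 0 counts the depth allows up to 0.104 CPM in the shallowest library, and the values of Adora2b rest on 21 to 62 counts.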
